A study of Homo sapiens with 6 samples.

Results

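The unfolded protein and ATF4 response genes are a set of 34 genes that cells use to fold proteins in the endoplasmic reticulum (ER) and to respond when folding or the amino acid supply fails. They were taken as a named list and found by symbol and Entrez gene ID, and all 34 were present among the 27257 genes with at least 1 line in a library table. All 34 also passed the filter on low counts that left 16092 genes for testing. The set was divided into an ER folding arm of 17 genes, a sensor group of 4 genes and an ATF4 arm of 13 genes. The ER folding arm holds chaperones, folding enzymes and genes of ER-associated degradation. The sensor group holds the sensors ERN1, ATF6 and EIF2AK3 together with XBP1, which is not itself a sensor. Counts and medians given for the sensors include XBP1.

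RNA-seq had been performed on U87MG, an established human glioblastoma line grown in DMEM with serum. Cells given a control lentivirus for 24 h (U87MG-control, 3 libraries) were compared with cells given an LMO2 lentivirus for the same time (U87MG-LMO2, 3 libraries). LMO2 encodes a LIM-domain adaptor protein that is studied as an oncogene in leukaemia. The study asked how LMO2 overexpression changes the transcriptome of glioblastoma cells, and the comparison here is of the ER folding arm with the ATF4 arm. Both groups were a single cell line, both had been infected with lentivirus, and no uninfected cells were analysed here. The labels do not say whether the 3 libraries of a group came from separate cultures, so p-values measure only the spread between these libraries, which may be technical.

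The ER imports, folds and glycosylates secreted and membrane proteins. When unfolded proteins accumulate there, 3 sensors in its membrane respond. ERN1 (IRE1α) splices XBP1 mRNA into the form that encodes an active transcription factor, ATF6 is cleaved to release another, and EIF2AK3 (PERK) phosphorylates eIF2α, which slows translation and favours that of ATF4. Spliced XBP1 and cleaved ATF6 raise chaperone and degradation genes, whereas ATF4 raises genes of amino acid synthesis and import and the stress regulators DDIT3 and TRIB3. Other kinases that sense amino acid shortage or double-stranded RNA also feed into ATF4. Gene-level read counts register neither the splicing of XBP1 nor the cleavage or phosphorylation of a protein.

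Many chaperone promoters hold the ER stress response element (ERSE), to which ATF6 binds together with NF-Y: CCAAT and, 9 bases on, CCACG. MANF and PDIA4, called lower below, held no match in the windows searched, and CANX, which held the element, is not printed. The stretches below show the element in PDIA6 and HSP90B1, which were called lower, and in members that were not called. Each is the gene strand 5′ to 3′ of RefSeq promoters on GRCh38.p14, with the pairs of motif letters in capitals. CGTGG and ATTGG are the same letters read on the opposite strand.
HSPA5, chr9:125241379-125241421, minus strand: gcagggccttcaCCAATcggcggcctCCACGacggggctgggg
PDIA6, chr2:10812841-10812883, minus strand: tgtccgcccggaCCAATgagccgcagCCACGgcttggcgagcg
HSP90B1, chr12:103930204-103930351, plus strand: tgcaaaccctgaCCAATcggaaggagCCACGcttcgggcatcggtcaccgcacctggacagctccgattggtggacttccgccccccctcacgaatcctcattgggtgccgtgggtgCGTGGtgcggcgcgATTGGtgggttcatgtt
CALR, chr19:12938372-12938414, plus strand: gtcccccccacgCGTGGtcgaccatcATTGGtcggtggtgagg
CRELD2, chr22:49918542-49918584, plus strand: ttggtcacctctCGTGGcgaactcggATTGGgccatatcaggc
XBP1, chr22:28800591-28800633, minus strand: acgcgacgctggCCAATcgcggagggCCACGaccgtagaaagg
HSP90B1, which encodes the ER paralogue of HSP90, held 2 matches in opposite orientations, and the other genes shown held 1 each.

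For the amino acid response, TGATGNAA, the core of the C/EBP-ATF element that ATF4 binds as a heterodimer, was searched in the same windows, which run from 250 bases before to 50 bases after each RefSeq start. These 2 stretches show it upstream of ASNS, the classic amino acid response gene, and of CHAC1, a glutathione-degrading enzyme that ATF4 induces.
ASNS, chr7:97872457-97872488, minus strand: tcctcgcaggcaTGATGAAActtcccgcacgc
CHAC1, chr15:40953250-40953281, plus strand: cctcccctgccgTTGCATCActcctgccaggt
In CHAC1 the letters lie on the strand opposite to the gene.

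The table of promoters held 32 of the 34 members (not PDIA3 or SHMT2) and 27305 genes in all. On both strands, exact ERSE was found in 6 of 16 ER folding members (37.5%), in XBP1 among the 4 sensors, in none of 12 ATF4 members and in 25 of all genes (0.092%). With at most 1 mismatch it was found in 11 of 16 ER folding members (68.8%), 1 of 12 ATF4 members and 1.893% of all genes. ERSE-II (ATTGG, 1 base, CCACG), searched after the first results were seen, matched HYOU1, SDF2L1 and HERPUD1 and 0.07% of all genes. TGACGTG, the core of the UPR element, was found in HYOU1 alone of the members and in 2.395% of all genes. TGATGNAA was found in 3 of 12 ATF4 members (CHAC1, ASNS and SLC3A2), in HERPUD1 of the ER folding arm and in 4.457% of all genes. A match describes letters in a window and not a bound site.

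The libraries held 11428432 to 13537284 expected counts in the control group and 14630627 to 17892955 after LMO2, with no overlap in depth. LMO2 (4005) had 7, 11 and 5 counts in U87MG-control and 5459, 4503 and 14570 counts in U87MG-LMO2, a log2 fold change of 9.70 (SE 0.60, edgeR adjusted p = 4.13e-04). U87MG-LMO2 replicate 3, with the highest LMO2 count, stood apart from the other libraries of its group. Chi-square per degree of freedom between libraries was 37.6 and 51.5 for its 2 pairs, against 7.64 for the other U87MG-LMO2 pair and 2.25 to 10.6 for the control pairs. VIM, CD44, TNC and SPARC, which mark mesenchymal glioma cells, were expressed, whereas SOX2 had at most 4 counts in a library and S100B at most 1. NES had group means of 44.5 and 43.0 CPM (log2 fold change -0.05). OLIG2, with at most 14 counts in a library, had a log2 fold change of -0.75 (edgeR adjusted p = 0.227). Every U87MG-LMO2 library lay below every control for OLIG2. GFAP, with at most 13 counts in a library, was left out of testing because the authors' U87MG-LMO2 mean did not match its library values. Of the 9 glioma markers 6 were tested and 2 were called, both higher in U87MG-LMO2 without overlap, beside 4.72% of all genes tested. TNC, a matrix glycoprotein, had a log2 fold change of 0.67 (edgeR adjusted p = 0.0197) and SPARC, a secreted matrix-binding protein, of 0.81 (edgeR adjusted p = 0.00787), and their part in the results below was not tested. Of 7 markers of other cell types, PTPRC, EPCAM, CDH5, RBFOX3 and MBP did not pass the filter, with at most 15 counts in a library, PECAM1 was near 5 CPM, and CD68, a lysosomal gene not limited to macrophages, had group means of 436.6 and 400.0 CPM without a call.

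Between the groups, 4 members were lower in U87MG-LMO2 and none was higher at an edgeR adjusted p under 0.05. All 4 were ER folding genes: MANF, PDIA6, PDIA4 and HSP90B1. At the same threshold 2.75% of all genes tested were lower and 4.72% were higher. In the ER folding arm 4 of 17 genes were thus called lower, and in the ATF4 arm 0 of 13 and among the sensors 0 of 4 were called either way. At an unadjusted p under 0.05, 7 ER folding genes were lower and 0 higher, 3 ATF4 genes were higher and 3 lower, and 0 sensors passed. At that threshold 13.8% of all genes tested were higher and 11.9% lower. The median log2 fold change was -0.17 over the ER folding arm, -0.11 over the sensors and 0.05 over the ATF4 arm, beside -0.01 over all genes tested. The ATF4 median was below 0 in 4 of 6 fits without a library and after the GC-content correction, so its sign is not set.

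**Figure D1:**
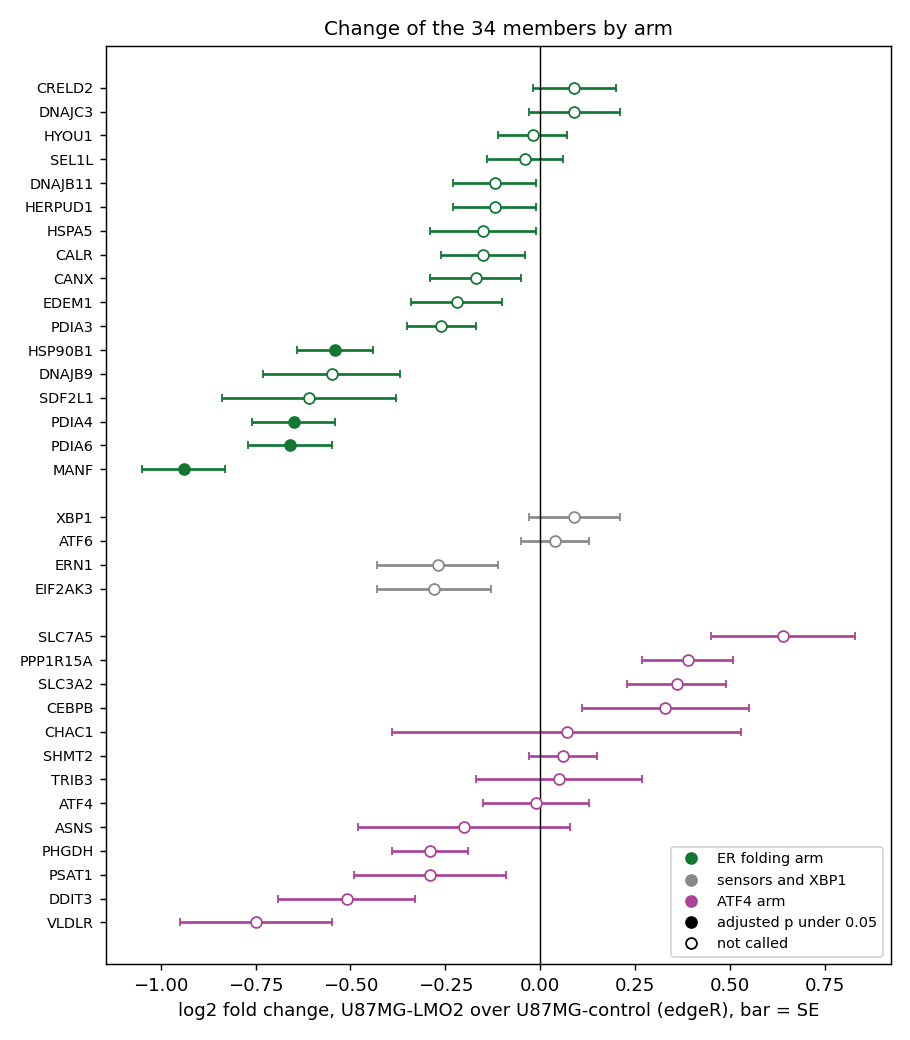
Log2 fold change of each of the 34 members, U87MG-LMO2 over U87MG-control (x axis, edgeR), with bars of 1 SE, n = 3 libraries per group. Filled points have an edgeR adjusted p under 0.05. In the ER folding arm 15 of 17 points lie below 0, down to -0.94 for MANF, while the ATF4 arm spreads from -0.75 for VLDLR to 0.64 for SLC7A5. Of all genes tested, 8231 of 16092 were below 0.

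Before the single genes, the groups were compared by overlap in CPM. Every U87MG-LMO2 library lay below every control library for 7 ER folding genes (HSP90B1, PDIA3, PDIA4, PDIA6, DNAJB9, SDF2L1 and MANF), and above for none. Over all genes tested 16.6% lay below in this way and 17.5% above. Of the ATF4 arm, 3 genes lay above (PPP1R15A, SLC7A5 and SLC3A2) and 3 below (DDIT3, PHGDH and VLDLR). The 4 sensor genes overlapped in CPM. These separations depended in part on the scaling. In FPKM, SLC7A5 and SLC3A2 overlapped. CALR, HERPUD1, EDEM1 and the sensor ERN1, which overlapped in CPM, lay wholly below in FPKM, and CRELD2 lay wholly above. The share of all genes that did not overlap in FPKM was not computed. In all, 23 of the 34 members had a fold change below 0, 15 of them in the ER folding arm. Of all genes tested, 8231 of 16092 were below 0.

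MANF (7873) encodes a small secreted ER-resident protein that is induced by ER stress and promotes cell survival. Its normalised read counts were 71.5, 78.0 and 72.4 CPM in U87MG-control and 42.3, 38.8 and 34.6 CPM in U87MG-LMO2. The lowest control library was therefore well above the highest U87MG-LMO2 library. The mean fell from 74.0 ± 3.52 to 38.6 ± 3.88 CPM (SD, n = 3 each), which is 47.9% lower, with a log2 fold change of -0.94 (SE 0.11, edgeR adjusted p = 0.00413). MANF was the member with the largest fold change and was called lower under all 14 alternative settings, with log2 fold changes of -1.01 to -0.87 and adjusted p up to 0.0330.

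PDIA6 (10130) and PDIA4 (9601) are protein disulphide isomerases, which form and rearrange the disulphide bonds of folding proteins. PDIA6 had 178.5, 161.5 and 170.1 CPM in U87MG-control and 116.3, 111.5 and 96.0 CPM in U87MG-LMO2. Its mean fell from 170.0 ± 8.49 to 107.9 ± 10.6 CPM (SD, n = 3 each), with a log2 fold change of -0.66 (SE 0.11, edgeR adjusted p = 0.0130). PDIA4 had 207.6, 202.9 and 189.1 CPM in U87MG-control and 134.9, 135.7 and 111.9 CPM in U87MG-LMO2. Both genes were thus lower in every U87MG-LMO2 library, by similar amounts. The PDIA4 mean fell from 199.9 ± 9.61 to 127.5 ± 13.5 CPM (SD, n = 3 each), with a log2 fold change of -0.65 (SE 0.11, edgeR adjusted p = 0.0143). Another isomerase, PDIA3 (2923), which acts on glycoproteins with calnexin and calreticulin, had 205.0, 190.2 and 208.2 CPM against 166.1, 176.8 and 161.0 CPM. The groups did not overlap, but the log2 fold change of -0.26 (SE 0.09) was not called (edgeR adjusted p = 0.124).

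HSP90B1 (7184), also known as GRP94, is an abundant chaperone of secreted and membrane proteins including integrins and Toll-like receptors. It had 524.3, 538.5 and 557.5 CPM in U87MG-control and 392.2, 380.8 and 339.3 CPM in U87MG-LMO2, again without overlap. The mean fell from 540.1 ± 16.6 to 370.7 ± 27.8 CPM (SD, n = 3 each), with a log2 fold change of -0.54 (SE 0.10, edgeR adjusted p = 0.0176). HSP90B1 has processed pseudogenes, as ATF4 has, and how the authors' counting assigned shared reads is not given in the sources used here.

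Leaving out a library changed the number of these calls. MANF alone was called without any 1 of the 3 U87MG-control libraries. Lower calls over all genes fell in those fits from 443 to 46, 56 and 42, while the log2 fold changes stayed at -0.68 to -0.62 for PDIA4, -0.69 to -0.62 for PDIA6 and -0.57 to -0.52 for HSP90B1. MANF and PDIA6 were called without U87MG-LMO2 replicate 1. All 4 were called without U87MG-LMO2 replicate 2. Without U87MG-LMO2 replicate 3, which stood apart, 7 members were called lower (the 4 genes with SDF2L1, DDIT3 and VLDLR) and 3 higher (PPP1R15A, SLC3A2 and SLC7A5). In that fit 1102 of 16392 genes were lower and 1307 higher, so calls rose among all genes as well.

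HSPA5 (3309), or BiP, is the central ER HSP70 chaperone and the usual gauge of an unfolded protein response. It had 456.2, 537.0 and 550.0 CPM in U87MG-control and 418.6, 411.7 and 556.0 CPM in U87MG-LMO2. U87MG-LMO2 replicate 3 was the highest of all 6 libraries and the other two were the lowest, so the groups overlapped. The log2 fold change was -0.15 (SE 0.14, edgeR adjusted p = 0.523). Without U87MG-LMO2 replicate 3 it was -0.31 (SE 0.09, edgeR adjusted p = 0.0537), and over all 14 alternatives it ranged from -0.31 to -0.06 without a call. The ratio of HSP90B1 to HSPA5 CPM was 1.15, 1.00 and 1.01 in the control libraries and 0.937, 0.925 and 0.610 in the U87MG-LMO2 libraries. The 2 chaperones therefore stood in a lower ratio in every U87MG-LMO2 library, and the lowest ratio was in replicate 3. The ratio is made from the CPM of a called and an uncalled gene given above and is not a separate result.

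**Figure D2:**
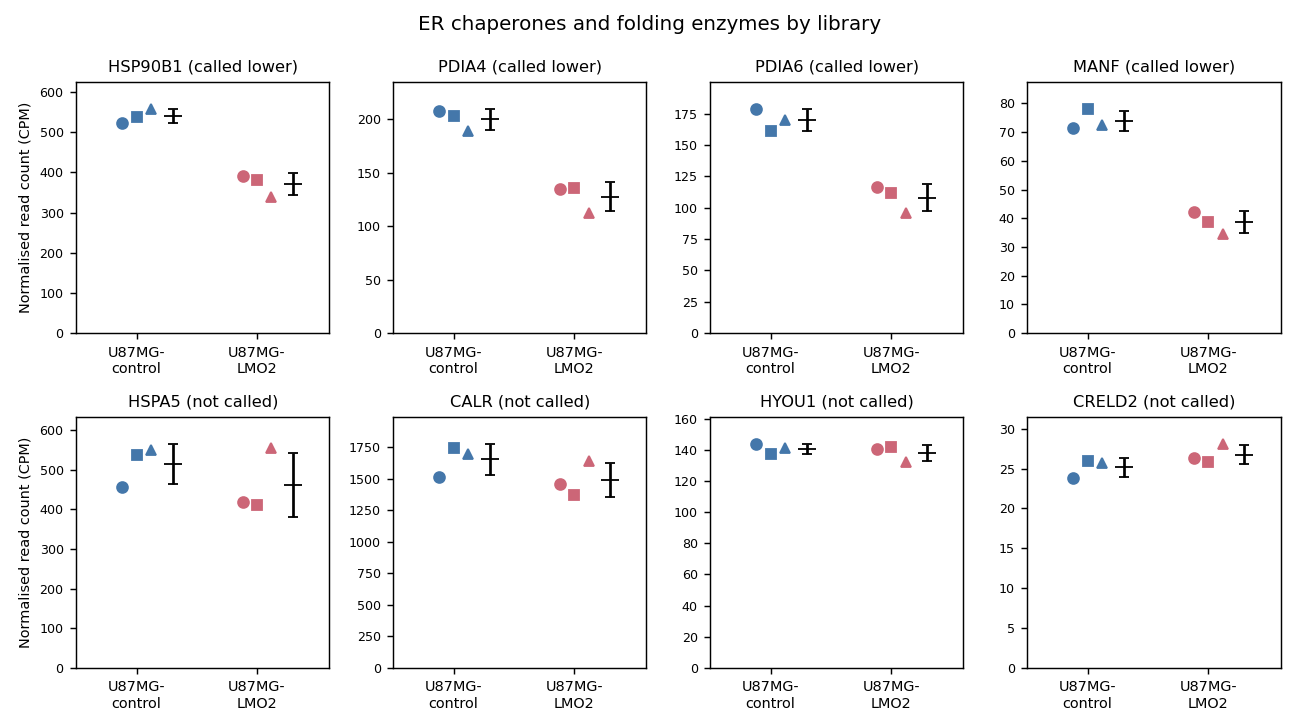
Normalised read counts (CPM, y axes from 0) of 8 ER folding genes in the 3 U87MG-control (blue) and 3 U87MG-LMO2 (red) libraries, with circles, squares and triangles for replicates 1 to 3 and black bars for the mean ± SD. The upper row (HSP90B1, PDIA4, PDIA6 and MANF) shows groups that do not overlap, and the lower row (HSPA5, CALR, HYOU1 and CRELD2) shows groups that do.

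The lectin chaperones, which hold newly made glycoproteins, were not called. CALR (calreticulin) had 1515.2, 1745.6 and 1697.5 CPM against 1458.5, 1372.9 and 1639.1 CPM, with a log2 fold change of -0.15 (SE 0.11, edgeR adjusted p = 0.413). CANX (calnexin) had a log2 fold change of -0.17 (SE 0.12), with U87MG-LMO2 replicate 3 the lowest library at 413.2 CPM. The co-chaperones of HSPA5 differed among themselves. DNAJB9, an HSP40 that also restrains ERN1, had a log2 fold change of -0.55 (SE 0.18, edgeR adjusted p = 0.0931) with 7.20, 6.35 and 5.45 CPM against 4.03, 4.57 and 4.34 CPM. SDF2L1, a partner of DNAJB11, had 10.5, 13.6 and 10.7 CPM against 5.43, 7.50 and 9.88 CPM (log2 fold change -0.61, SE 0.23, edgeR adjusted p = 0.135). These 2 genes had the lowest CPM of the ER folding arm, their groups did not overlap, and their SEs were the largest of that arm.

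The remaining ER folding genes lay near 0. DNAJB11 had a log2 fold change of -0.12, DNAJC3, an inhibitor of eIF2α kinases that also works as a co-chaperone, of 0.09, and HYOU1, a nucleotide exchange factor for HSPA5, of -0.02. CRELD2 had 23.8, 26.0 and 25.7 CPM against 26.3, 25.8 and 28.1 CPM, a log2 fold change of 0.09 (SE 0.11). MANF and CRELD2 are both small secreted proteins of the ER stress response. The ratio of MANF to CRELD2 CPM was 3.01, 3.00 and 2.81 in the control libraries and 1.61, 1.51 and 1.23 in the U87MG-LMO2 libraries. This ratio restates the fall of MANF beside a gene that was not called and is not a separate result. Among the genes of ER-associated degradation, in which misfolded proteins are returned to the cytosol, SEL1L had a log2 fold change of -0.04, HERPUD1 of -0.12 and EDEM1 of -0.22, and none was called.

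A promoter match did not separate the called from the uncalled chaperones. The 6 ER folding genes with exact ERSE had a median log2 fold change of -0.16, from -0.66 for PDIA6 to 0.09 for CRELD2, and 2 were called lower. The 5 genes with ERSE-II or a single mismatch (DNAJC3, HYOU1, SDF2L1, SEL1L and HERPUD1) had a median of -0.04 and none was called. The 5 genes without a match (PDIA4, DNAJB9, DNAJB11, MANF and EDEM1) had a median of -0.55, and 2 were called lower. HSPA5 and HSP90B1, whose stretches are printed above, both held exact ERSE and had log2 fold changes of -0.15 and -0.54. Classes of 5 and 6 genes give a description only, and the windows do not reach elements elsewhere.

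**Figure D3:**
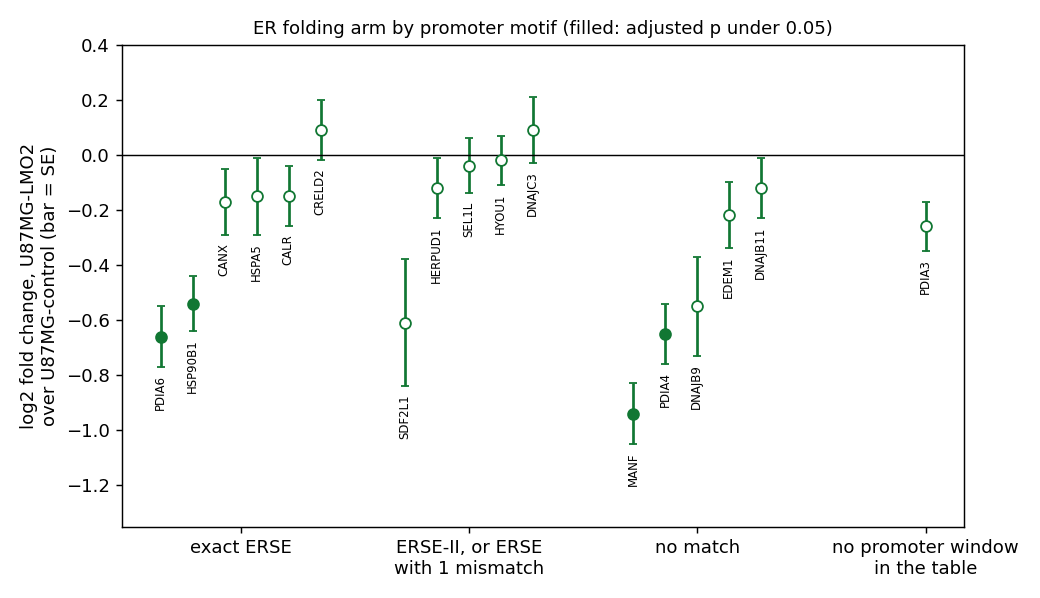
Log2 fold change, U87MG-LMO2 over U87MG-control (y axis, bars of 1 SE, n = 3 libraries per group), of the 17 ER folding genes by the motif in their RefSeq promoter window. Filled points have an edgeR adjusted p under 0.05. Called genes stand in the class with exact ERSE (PDIA6 and HSP90B1) and in the class with no match (MANF and PDIA4).

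The sensors and XBP1 were not called. XBP1 had 46.8, 45.9 and 39.9 CPM in U87MG-control and 41.5, 47.4 and 52.7 CPM in U87MG-LMO2, a log2 fold change of 0.09 (SE 0.12, edgeR adjusted p = 0.669). XBP1 holds the exact ERSE printed above and is itself a target of ATF6. ATF6 had 68.3, 64.5 and 66.0 CPM against 67.0, 71.7 and 65.2 CPM, a log2 fold change of 0.04 (SE 0.09, edgeR adjusted p = 0.831). ERN1 had 10.1, 11.5 and 9.53 CPM against 8.05, 7.91 and 9.94 CPM (log2 fold change -0.27, SE 0.16, edgeR adjusted p = 0.329). EIF2AK3 had 28.0, 21.6 and 22.8 CPM against 19.4, 22.6 and 17.8 CPM (log2 fold change -0.28, SE 0.15, edgeR adjusted p = 0.275). For both kinases the mean was lower in U87MG-LMO2 but the groups overlapped in CPM. In FPKM the groups of EIF2AK3 overlapped and those of ERN1 did not.

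The ATF4 arm held no call, and its genes lay on both sides of 0. ATF4 (468) itself had 235.0, 182.3 and 169.7 CPM in U87MG-control and 178.3, 195.3 and 210.3 CPM in U87MG-LMO2, a log2 fold change of -0.01 (SE 0.14, edgeR adjusted p = 0.978). U87MG-control replicate 1 was the highest library. ATF4 is regulated largely through translation, which read counts do not measure. DDIT3 (CHOP), a transcription factor linked to cell death under lasting stress, had 40.0, 30.5 and 33.2 CPM against 23.5, 19.0 and 30.1 CPM. Its groups did not overlap, by a narrow margin, and its log2 fold change was -0.51 (SE 0.18, edgeR adjusted p = 0.119).

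PPP1R15A (GADD34) recruits the phosphatase that reverses eIF2α phosphorylation. It had 86.1, 96.8 and 91.5 CPM in U87MG-control and 113.5, 137.8 and 108.6 CPM in U87MG-LMO2, without overlap (log2 fold change 0.39, SE 0.12, edgeR adjusted p = 0.0780). DESeq2 called it higher. CEBPB, a C/EBP factor that dimerises with ATF4, had 197.8, 179.1 and 166.1 CPM against 190.4, 168.7 and 325.0 CPM, so its log2 fold change of 0.33 (SE 0.22) rested on U87MG-LMO2 replicate 3 and was -0.01 without it. TRIB3, a pseudokinase that dampens ATF4 signalling, had a log2 fold change of 0.05 (SE 0.22). CHAC1 had 6.77 CPM in U87MG-control replicate 1 against 1.53 and 2.50 CPM in the other control libraries and 3.23, 4.16 and 3.80 CPM in U87MG-LMO2. Its log2 fold change of 0.07 had an SE of 0.46, the largest of the members.

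The enzymes of serine, glycine and asparagine synthesis were not called. ASNS (asparagine synthetase) had 23.0, 15.6 and 14.0 CPM in U87MG-control and 14.2, 21.3 and 10.2 CPM in U87MG-LMO2, with overlapping groups (log2 fold change -0.20, SE 0.28, edgeR adjusted p = 0.686). PHGDH, the first enzyme of serine synthesis, had 147.8, 139.6 and 142.9 CPM against 119.6, 125.2 and 107.2 CPM. It did not overlap, and its log2 fold change was -0.29 (SE 0.10, edgeR adjusted p = 0.106). PSAT1, the next enzyme, also had -0.29, with a larger SE of 0.20 and overlapping groups. SHMT2, which makes glycine from serine in mitochondria, had 0.06 (SE 0.09).

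SLC7A5 and SLC3A2 encode the light and heavy chains of the LAT1 transporter, which imports large neutral amino acids. SLC7A5 had 20.3, 18.6 and 15.8 CPM in U87MG-control and 26.7, 36.1 and 22.3 CPM in U87MG-LMO2 (log2 fold change 0.64, SE 0.19, edgeR adjusted p = 0.0777). SLC3A2 had 97.5, 119.1 and 120.2 CPM against 149.0, 159.7 and 123.7 CPM (log2 fold change 0.36, SE 0.13, edgeR adjusted p = 0.128). In CPM all U87MG-LMO2 libraries were above all controls for both chains, and edgeR called neither. In FPKM both chains overlapped through U87MG-LMO2 replicate 3. SLC7A5 was at 4.49 FPKM there and at 4.56 in U87MG-control replicate 1. SLC3A2 was at 57.8 FPKM there and at 60.09 and 60.91 in U87MG-control replicates 2 and 3. The separation of these 2 genes therefore depended on the scaling. DESeq2 and the fit with no filter on low counts called SLC7A5 higher. VLDLR, a lipoprotein receptor that PERK and ATF4 can induce, had 58.8, 35.9 and 39.7 CPM against 24.2, 24.0 and 31.3 CPM (log2 fold change -0.75, SE 0.20, edgeR adjusted p = 0.0555). It had the lowest fold change of the ATF4 arm, and DESeq2 and the fit with no filter on low counts called it lower.

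To set the arms against each other within a library, log2 CPM of each gene was centred on its control mean and averaged over the arm. The ER folding arm averaged 0.00, 0.02 and -0.01 in the control libraries and -0.31, -0.27 and -0.31 in the U87MG-LMO2 libraries. The groups did not overlap and each was narrow, but the average does not describe every gene of the arm. It includes the 4 genes called lower. Log2 fold changes over the 17 genes ran from -0.94 to 0.09, with a median of -0.17. The ATF4 arm averaged 0.22, -0.13 and -0.10 in the control libraries and -0.08, 0.08 and -0.01 in the U87MG-LMO2 libraries, so all U87MG-LMO2 values lay within the control range. The ATF4 arm minus the ER folding arm was 0.23, -0.14 and -0.08 in the control libraries and 0.23, 0.35 and 0.30 in the U87MG-LMO2 libraries. The mean difference between groups was 0.29, and U87MG-control replicate 1 reached the lowest U87MG-LMO2 value to 2 decimals. Without that control library the difference was 0.41, and after a correction for GC content it was 0.18. These averages are over listed genes, and no test was made of them.

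**Figure D4:**
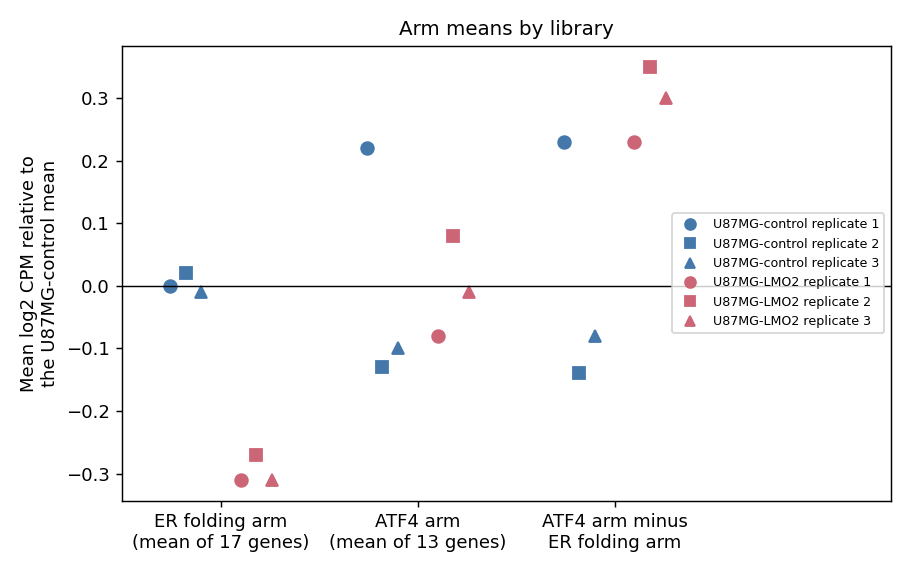
Mean log2 CPM of each arm relative to the U87MG-control mean (y axis, no unit) in the 3 U87MG-control (blue) and 3 U87MG-LMO2 (red) libraries, marked by replicate, and the difference between the arms. The ER folding arm lies between -0.01 and 0.02 in the controls and between -0.31 and -0.27 in U87MG-LMO2, whereas the ATF4 arm of U87MG-control replicate 1, at 0.22, is above all other libraries.

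U87MG-control replicate 1 was the highest control library for 9 of the 13 ATF4 genes (69.2%), against 41.0% of all genes tested and 6 of 17 ER folding genes. These ATF4 genes include ATF4, DDIT3, TRIB3, CHAC1, ASNS and VLDLR, each described above. Within the control group the coefficient of variation (SD over mean of CPM) had a median of 4.81% over the ER folding arm, 12.4% over the ATF4 arm and 9.94% over all genes. In U87MG-LMO2 the medians were 10.1%, 15.7% and 14.9%. By median, ER folding genes therefore varied less between control libraries than the ATF4 genes did. Single genes of the 2 arms overlapped, with SDF2L1 at 15.0% and PHGDH at 2.9% in the controls. The 4 called genes had control coefficients of 3.08% to 4.99%. Whether this spread bears on which genes were called was not tested.

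Levels per length were compared in FPKM. CALR was the highest member in U87MG-control, at 865.0 ± 64.6 FPKM (SD, n = 3). HSP90B1 followed at 188.2 ± 5.84 FPKM, then ATF4 at 136.6 ± 24.4, HSPA5 at 129.4 ± 12.9, CANX at 120.6 ± 3.86 and SHMT2 at 117.2 ± 4.14 FPKM. The SDs of these last 4 overlap, so their order is not set. In U87MG-LMO2, HSP90B1 was at 125.9 ± 15.5 FPKM and HSPA5 at 112.4 ± 13.8 FPKM, within an SD of each other. MANF was at 76.6 ± 3.75 FPKM in U87MG-control and 38.9 ± 5.71 FPKM in U87MG-LMO2, beside 17.3 ± 0.942 and 18.9 ± 0.512 FPKM for CRELD2. The lowest members in U87MG-control were CHAC1 at 2.32 ± 1.77, DNAJB9 at 2.51 ± 0.345 and ERN1 at 2.59 ± 0.259 FPKM.

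Other genes of the pathway were examined from 3 lists. Of 49 other ER folding, translocation and degradation genes, 46 were tested, with 2 called higher, 0 lower and a median log2 fold change of 0.06. WFS1, an ER membrane protein that limits ER stress, rose from 37.3 ± 0.831 to 53.4 ± 1.79 CPM (SD, n = 3 each; log2 fold change 0.52, edgeR adjusted p = 0.0188). SEC61A1, the channel through which proteins enter the ER, rose from 622.6 ± 26.0 to 821.6 ± 17.8 CPM (log2 fold change 0.40, edgeR adjusted p = 0.0345). Over all genes tested 4.72% were called higher and 2.75% lower, so 2 of 46 is near the share over all genes. At an unadjusted p under 0.05, 12 of these genes were higher and 6 lower, beside 13.8% and 11.9% of all genes.

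Of 45 other ATF4 and amino acid response genes, 42 were tested, with 2 called higher, 3 lower and a median log2 fold change of -0.09. STC2, a secreted glycoprotein induced by ER stress and hypoxia, rose from 93.3 ± 9.31 to 400.7 ± 158 CPM (log2 fold change 2.10, SE 0.26, edgeR adjusted p = 0.00500). SLC7A1, a transporter of arginine and lysine, rose from 291.7 ± 40.3 to 406.3 ± 16.6 CPM (log2 fold change 0.48, edgeR adjusted p = 0.0469). JDP2, a repressor of the AP-1 and ATF families, fell from 30.5 ± 3.89 to 19.0 ± 1.51 CPM (log2 fold change -0.68, edgeR adjusted p = 0.0232). NIBAN1, a stress-induced regulator of translation, fell from 242.8 ± 29.4 to 152.6 ± 10.8 CPM (log2 fold change -0.67, edgeR adjusted p = 0.0158), and LARS1, the cytosolic leucyl-tRNA synthetase, from 145.5 ± 9.48 to 107.9 ± 10.1 CPM (log2 fold change -0.43, edgeR adjusted p = 0.0451). These counts of 2 higher and 3 lower among 42 stand beside 4.72% and 2.75% of all genes called.

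The last list held 10 genes: eIF2α kinases other than EIF2AK3, which is a member, genes of eIF2 and eIF2B, and PPP1R15B. All were tested, and edgeR called 0 at an adjusted p under 0.05 (median log2 fold change -0.10). At an unadjusted p under 0.05, 4 were lower and 0 higher, beside 11.9% and 13.8% of all genes. Fewer transcripts of a gene in every cell and fewer cells that express it cannot be told apart in these bulk libraries.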

How the data were processed

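Total RNA of 6 U87MG libraries was sequenced by a service company. For each library the authors deposited expected counts (estimated reads per gene, not normalised) and FPKM (scaled to length and mapped reads). The submitters' processing notes name Bowtie2, BWA and GRCh38.p12, and the counting program and versions are not given in the sources used here. The authors' comparison table also holds a log2 ratio and a probability, which were not used. Its group means did not match the libraries for 134 genes (tolerance 0.001 FPKM), of which 129 had no line for U87MG-LMO2 replicate 3. These genes, 0.35% of control counts, were left out, and no member was among them.

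Expected counts were rounded and tested with edgeR 4.0.16 in R 4.3.3 (filterByExpr, TMM, glmQLFit and glmQLFTest, 2-sided), with Benjamini-Hochberg adjustment over 16092 genes. CPM used TMM library sizes, and the arm averages used log2 CPM with a prior count of 2. A call is an adjusted p under 0.05. Alternatives were DESeq2 1.42.0, upper-quartile normalisation, no filter, at least 10 counts in every library, limma 3.58.1 on log2(FPKM + 1) and log2(FPKM + 0.1), a replicate block, a GC-content correction (lowess span 0.3) and 6 fits without a library. The edgeR, DESeq2 and limma fits were also run on simulated counts with known changes. Those counts held no library that stood apart from its group, so that run does not show how the calls hold here.

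The members, arms, lists and motifs were chosen with earlier results of these data known. The genes named are LMO2, all 34 members, called genes of the pathway lists (up to 4 each way) and markers. Motifs were searched in RefSeq promoter windows of GRCh38.p14. The depth was 11428432 to 17892955 counts per library, and intervals from such counts would cover counting error only.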

Additional observations from a re-analysis of the deposited data

How the results depend on the processing

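MANF was called lower under all 14 alternatives, PDIA6 under 11, PDIA4 under 10 and HSP90B1 under 9, each with a fold change below 0 throughout. The log2 fold changes ranged from -0.71 to -0.57 for PDIA6, -0.70 to -0.56 for PDIA4 and -0.59 to -0.38 for HSP90B1. The -0.38 of HSP90B1 came with the GC-content correction. Same-numbered libraries did not deviate together (r = -0.12, 0.00 and -0.04), so the replicate numbers were not taken as pairs. With the replicate block 3 members were called lower (HSP90B1 was lost, adjusted p = 0.0529), 387 genes were higher and 189 lower, and 1 other pathway gene was higher. The log2 fold change of ATF4 was then 0.00. Without 1 library in turn, members called lower ranged from 1 to 7 (1 to 5 in the ER folding arm, 0 to 2 in the ATF4 arm) and members called higher from 0 to 3, all in the ATF4 arm. Other pathway genes called ranged from 1 to 9 higher and from 0 to 12 lower. The ER folding median ranged from -0.23 to -0.15 and the ATF4 median from -0.10 to 0.14, below 0 in 4 of 6 fits. DESeq2 called 2 ATF4 genes higher and 1 lower, and 8 other pathway genes higher and 7 lower. The fit with no filter called 1 ATF4 gene higher (SLC7A5) and 1 lower (VLDLR). limma on FPKM gave ER folding medians of -0.25 with both pseudocounts, sensor medians of -0.20 (+ 1) and -0.24 (+ 0.1), and 2 other pathway genes higher with either. It placed ATF6 at -0.19 and -0.20. The GC-content correction gave medians of -0.10 for the ATF4 arm and -0.01 for the sensors, and 2 other pathway genes higher. It called 5 members lower, SDF2L1 (-0.90, adjusted p = 0.0320) with the 4. It also placed uncalled genes on the other side of 0: CHAC1 -0.15, CRELD2 -0.08, DNAJB11 0.02, SEL1L 0.12, SHMT2 -0.09 and TRIB3 -0.17. Leaving out a library moved these uncalled genes across 0: ASNS (-0.52 to 0.04), ATF4 (-0.10 to 0.14), ATF6 (-0.00 to 0.07), CEBPB (-0.01 to 0.51), CHAC1 (-0.29 to 0.89), HYOU1 (-0.04 to 0.01), SEL1L (-0.10 to 0.02) and TRIB3 (-0.10 to 0.25). The cause of these changes was not tested. LMO2 had no value with at least 10 counts in every library, which removed it. With 3 libraries a group, no count of 0 calls shows that genes did not differ.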
